A study of Mus musculus with 23 samples.

Results

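Dlg, Shank and Homer proteins are the scaffolds that hold receptors in place beneath the postsynaptic membrane of excitatory synapses. Their RNA was examined in hippocampal neurons that lack NEDD8, a ubiquitin-like protein that is attached to cullins and other targets, and whose targets include PSD-95, the product of *Dlg4*. The genes are *Dlg1*, *Dlg2*, *Dlg3*, *Dlg4*, *Shank1*, *Shank2*, *Shank3*, *Homer1*, *Homer2* and *Homer3*, 10 of the 56941 genes in the count tables. They were taken by name, but with earlier results of these data known when the list was chosen. All 10 passed the filter on low counts, with 88 to 9611 counts per library in the main comparison.

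The neurons came from newborn (P0) pups homozygous for the conditional allele Nedd8cKO, so RFP and CRE cultures carried the same allele. Lentivirus with RFP (control) or with CRE and RFP was added on day 1 in vitro. RNA was taken after 12 days in culture by the labels, or 13 days by the description of the cultures. The viruses used the promoter of *Synapsin1*, a gene active in neurons, so glia in these dishes would keep *Nedd8*. A dish received the cells of a pair of hippocampi, and no sex is given. The 23 libraries (12 CRE, 11 RFP) are called here by group, culture number and replicate number, as in CRE 1-3. The digit after Cre or RFP in a label was read as the culture, which neither the labels nor the methods say. Figure legends of the study give N = 3 for its RNA-seq values, and its methods define N as animals or biological replicates. Several libraries therefore share a biological replicate. The p-values over libraries treat each library as independent, so they measure spread that is partly within a replicate.

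The Dlg proteins (membrane-associated guanylate kinases, or MAGUKs) bind the tails of NMDA receptors and of the auxiliary subunits of AMPA receptors through PDZ domains. Their guanylate kinase domain binds Dlgap proteins, which bind Shank, and Shank binds Homer. Homer in turn binds group I metabotropic glutamate receptors and inositol trisphosphate receptors, and Shank connects the whole to actin.

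The main comparison used 21 libraries, 11 CRE and 10 RFP, which leave out CRE 3-3 (1546796 counts) and RFP 3-2 (7635735 counts). Totals ran from 7430401 to 13345552 counts in CRE and from 9833872 to 17112815 in RFP libraries. *Nedd8*, the deleted gene, stood at 5.92 to 18.0 CPM (counts scaled to library size with TMM factors) in CRE and 44.1 to 76.0 in RFP libraries. The libraries CRE 1-3, CRE 3-3 and RFP 2-4 stood apart, with 0.261%, 1.83% and 3.43% of counts from mitochondrial genes against 7.0% to 11.1% in the other 20. RFP 3-2 differed in another way, with 24.2% of counts from the ribosomal RNA gene *Rn18s-rs5*, against 0.856% to 5.86% in all other libraries. In CRE 1-3 the scaffold genes departed from the median of the other CRE libraries by -2.19 to 1.54 on the log2 scale, downwards for the 4 genes with the lowest GC content (*Homer1*, *Dlg1*, *Dlg2*, *Homer2*) and upwards for *Dlg4*, *Shank2*, *Homer3*, *Shank1* and *Shank3*. Results are therefore also given for 19 libraries, without CRE 1-3 and RFP 2-4 as well, and for all 23.

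The level of most of these scaffold RNAs, as a part of all counts, was lower in the CRE cultures. Of the 10 genes, 8 were lower in CRE than in RFP libraries, 1 was higher (*Homer3*) and *Dlg1* did not pass the threshold (adjusted p under 0.05, edgeR's quasi-likelihood test with p-values adjusted by Benjamini-Hochberg). Over all 14488 genes tested, 13.8% were called lower and 16.4% higher, 30.2% in all. The median log2 fold change of the 10 genes was -0.49, against 0.019 for all genes. In the 19 libraries 8 were again lower and 1 higher, but the higher gene was *Dlg1*, and the background was 18.7% lower and 19.4% higher. The 21 libraries that the study's methods leave (without CRE 1-3 and CRE 3-3) gave 8 lower and 2 higher, *Dlg1* and *Homer3*, against 17.8% and 20.2%. With all 23 libraries 5 were lower (background 11.8%) and 1 higher (16.4%), because *Dlg4*, *Shank1* and *Shank3* no longer passed. The fold change of all 10 genes had the same sign in each of the 3 cultures, as it did for 55.8% of all genes. The cultures divide the same 21 libraries, and the 55.8% includes genes without a call, so the shared sign is no separate check. The difference between cultures passed for none of the 10 genes and for 0.0069% of all genes (adjusted p 0.977 to 0.998 for the 10, edgeR's interaction test). At an unadjusted p under 0.05 that test held 0 of the 10 genes and 595 of all genes. Without culture 2, 2 genes remained lower, *Dlg2* and *Homer2*, against a background of 5.45% called lower, and 0 of the 10 were higher (background 8.89%), with *Homer3* alone on that side at an unadjusted p under 0.05 (0.0228, edgeR). Of the lower genes that lost the call there, *Dlg3* was at -0.35, *Homer1* at -0.58 and *Shank2* at -0.41 on the log2 scale (unadjusted p = 0.0149, 0.00785 and 0.0194 in edgeR), and *Dlg4*, *Shank1* and *Shank3* were at -0.30, -0.34 and -0.34 (0.143, 0.141 and 0.235). In bulk RNA, fewer cells of a type and less RNA per cell cannot be told apart.

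**Figure D1:**
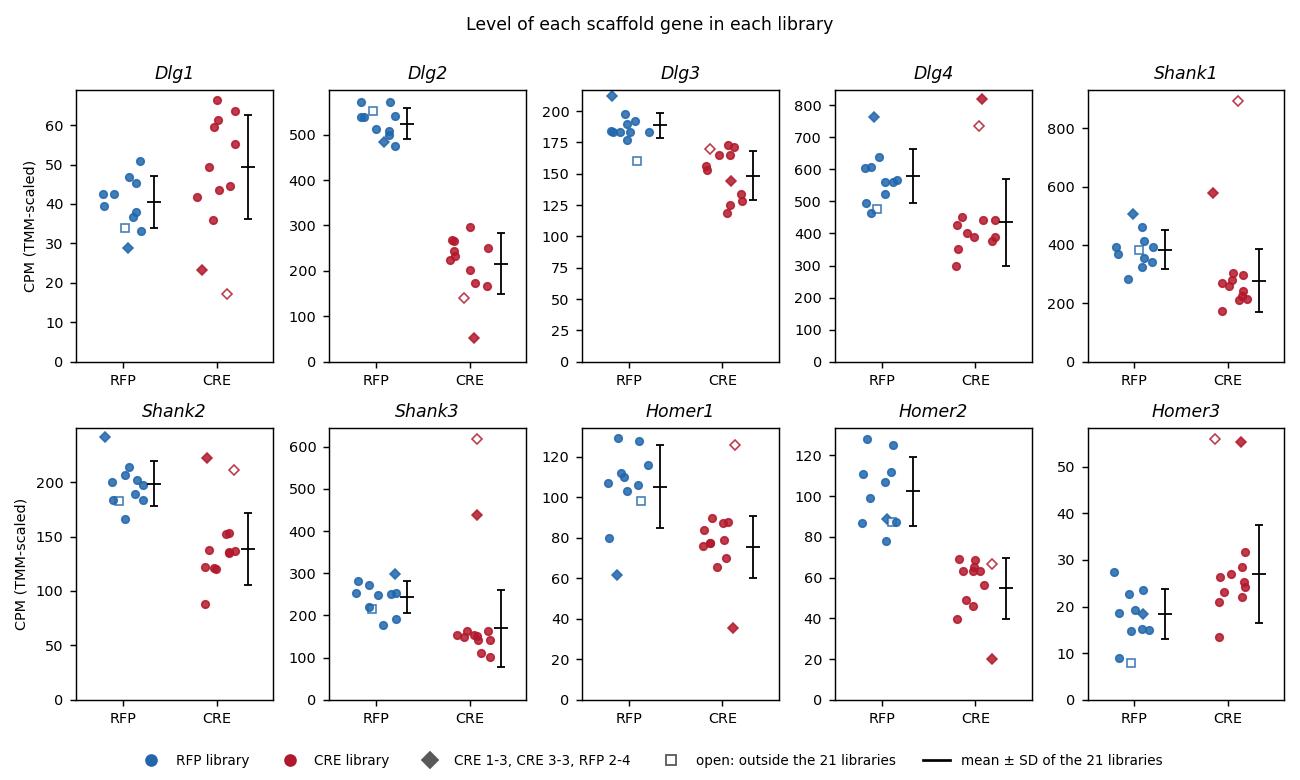
CPM (TMM-scaled, axis from 0) of the 10 scaffold genes in each library, RFP in blue and CRE in red, with mean ± SD of the 21 libraries beside the points. Diamonds mark CRE 1-3, CRE 3-3 and RFP 2-4, and open symbols the libraries outside the main comparison; the red diamonds of Shank1 (579 and 894 CPM) and Shank3 (438 and 617 CPM) lie above all RFP libraries while the other CRE libraries lie low.

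Members of the Dlg and Homer families did not all move alike, and the sequence before the start of the canonical transcript is shown for 3 of them: *Dlg2*, with the steepest decline, *Dlg4*, which encodes PSD-95, and *Homer3*, which went the other way. Each run is the 250 bases upstream of that start on the gene's strand, 5′ to 3′, from GRCm39 with GENCODE M39, with the E-box motif CANNTG in capitals:
Dlg2 (chr7:90739664-90739913, plus strand): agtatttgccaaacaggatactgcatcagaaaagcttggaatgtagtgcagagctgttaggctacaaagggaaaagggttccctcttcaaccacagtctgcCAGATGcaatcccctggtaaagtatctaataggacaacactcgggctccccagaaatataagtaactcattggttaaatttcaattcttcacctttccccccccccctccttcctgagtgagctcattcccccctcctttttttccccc
Dlg4 (chr11:69909017-69909266, plus strand): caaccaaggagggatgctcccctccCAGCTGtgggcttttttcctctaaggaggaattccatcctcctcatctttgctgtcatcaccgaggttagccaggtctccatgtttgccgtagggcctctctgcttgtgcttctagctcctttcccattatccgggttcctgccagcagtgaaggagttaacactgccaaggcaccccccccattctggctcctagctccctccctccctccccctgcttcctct
Homer3 (chr8:70735227-70735476, plus strand): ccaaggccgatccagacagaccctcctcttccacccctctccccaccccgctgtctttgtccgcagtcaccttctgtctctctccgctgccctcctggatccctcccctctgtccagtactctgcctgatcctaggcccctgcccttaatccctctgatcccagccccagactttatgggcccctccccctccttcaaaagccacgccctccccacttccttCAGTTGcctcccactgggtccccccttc
CANNTG stood 1 time before each of them, and 64.8% of the same windows of 21770 protein-coding genes hold it. On either strand, GGGCGG (36.3% of windows), TATAAA (11.9%), TGACGTCA (1.7%) and the palindromic NRF1 motif (0.7%) were in none of these 3 windows. GC content was 46.8% before *Dlg2*, 56.8% before *Dlg4* and 62.8% before *Homer3*, against a median of 53.2% over all windows. *Dlg2* and *Dlg4* have several starts, and the canonical one lies inside the outer bounds of each gene.

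*Dlg2* encodes PSD-93, a close relative of PSD-95 that binds NMDA receptors and potassium channels (ENSMUSG00000052572, chromosome 7 of GRCm39 from 90125880 to 92098455). It ranged from 476 to 572 CPM in RFP libraries (median 526) and from 52.3 to 296 in CRE libraries (median 233). No CRE library reached the lowest RFP library, a pattern that 2.08% of all genes had. On the log2 scale the change was -1.30 with a standard error (SE) of 0.18, and the Benjamini-Hochberg adjusted p of edgeR's test was 3.16e-06. That is a change of -59.4% (95% interval -68.4% to -47.8%). The groups also did not overlap over all 23 libraries (1.41% of all genes), with 141 CPM in CRE 3-3 and 551 in RFP 3-2. *Dlg2* fell under all 38 alternative settings, by 1.18 to 1.4 on the log2 scale. In cultures 1, 2 and 3 its log2 fold change was -1.51, -1.20 and -1.18.

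*Dlg4* encodes PSD-95, the most studied anchor of AMPA and NMDA receptors (ENSMUSG00000020886, chromosome 11 from 69907768 to 69938348). RFP libraries ranged from 465 to 764 CPM (median 565) and CRE libraries from 299 to 821 (median 401). Of 11 CRE libraries 10 were under the whole RFP range, and CRE 1-3 was over it. *Dlg4* fell by 0.43 on the log2 scale (SE 0.14, adjusted p = 0.0179 in edgeR's test). Within the 19 libraries the groups did not overlap (299 to 451 against 465 to 639 CPM), as for 4.09% of all genes, and the log2 fold change was -0.51 (adjusted p = 6.81e-06). With all 23 libraries it was -0.31 (adjusted p = 0.116), and over all alternatives adjusted p ran from 1.03e-06 to 0.343 in edgeR, DESeq2 or limma.

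*Dlg3* encodes SAP102, the MAGUK that leads in young neurons (ENSMUSG00000000881, chromosome X from 99810768 to 99862016). It stood at 177 to 212 CPM in RFP (median 184) and 119 to 173 in CRE libraries (median 153). The groups did not overlap in the 21 libraries, and RFP 3-2, outside them, lay within the CRE range at 159.9 CPM. *Dlg3* fell by 0.36 on the log2 scale (SE 0.09, adjusted p = 0.00216 with edgeR's test), or -22.3% (95% interval -31.3% to -12.0%). *Dlg1* encodes SAP97, which also works in trafficking and in epithelial cells (ENSMUSG00000022770, chromosome 16 from 31482187 to 31693947). It ranged from 28.9 to 50.9 CPM in RFP (median 41.0) and from 23.3 to 66.4 in CRE libraries (median 49.3). The groups overlapped, with 5 of 11 CRE libraries above every RFP library and CRE 1-3 below all of them. A difference of 0.27 on the log2 scale (SE 0.15, adjusted p = 0.186 in edgeR's test, 95% interval -0.04 to 0.58) did not pass, and without CRE 1-3 it did (0.34, adjusted p = 0.0226). Over the 19 libraries it was 0.30 (adjusted p = 0.041). Over the 38 alternatives it ran from 0.18 to 0.39, with adjusted p from 0.00941 to 0.563 in edgeR, DESeq2 or limma.

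The Shank genes encode the large platform proteins that tie Dlgap to Homer and to actin, and all 3 were called lower. *Shank3*, whose loss in people causes Phelan-McDermid syndrome (ENSMUSG00000022623, chromosome 15 from 89383826 to 89444464), stood at 178 to 297 CPM in RFP (median 252) and 102 to 438 in CRE libraries (median 152). Of 11 CRE libraries 10 lay under the whole RFP range and CRE 1-3 over it. *Shank3* fell by 0.55 on the log2 scale (SE 0.19, adjusted p = 0.0288 in edgeR's test). Among the 19 libraries CRE ranged from 102 to 164 CPM, under all RFP libraries, with a log2 fold change of -0.76 (adjusted p = 3.54e-07), and with all 23 it was -0.23 (adjusted p = 0.522). Leaving out CRE 1-2 (adjusted p = 0.051) or RFP 2-4 (0.0547) also lost the call. Adjusted p over all alternatives ran from 2.31e-07 to 0.522 in edgeR, DESeq2 or limma.

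*Shank1* (ENSMUSG00000038738, chromosome 7 from 43959615 to 44009996) ranged from 282 to 506 CPM in RFP libraries (median 381) and from 174 to 579 in CRE libraries (median 258). Here 8 of 11 CRE libraries lay under the RFP range and CRE 1-3 over it. The change was -0.49 on the log2 scale (SE 0.16, adjusted p = 0.0216 in edgeR's test), -0.60 in the 19 libraries (1.49e-05) and -0.23 in all 23 (0.463). Without RFP 2-4 alone it did not pass (0.0507), and adjusted p over alternatives ran from 8.90e-06 to 0.463 in edgeR, DESeq2 or limma. *Shank2* (ENSMUSG00000037541, chromosome 7 from 143532669 to 143979779) was less changed by the choice of libraries. It stood at 166 to 242 CPM in RFP (median 199) and 87.9 to 222 in CRE libraries (median 136), with 10 of 11 CRE libraries under the RFP range. *Shank2* fell by 0.54 (SE 0.12, adjusted p = 0.000945 with edgeR's test), and it passed under 37 of 38 alternatives, all but the one without culture 2 (adjusted p = 0.0956, the highest of the range that starts at 3.81e-07).

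**Figure D2:**
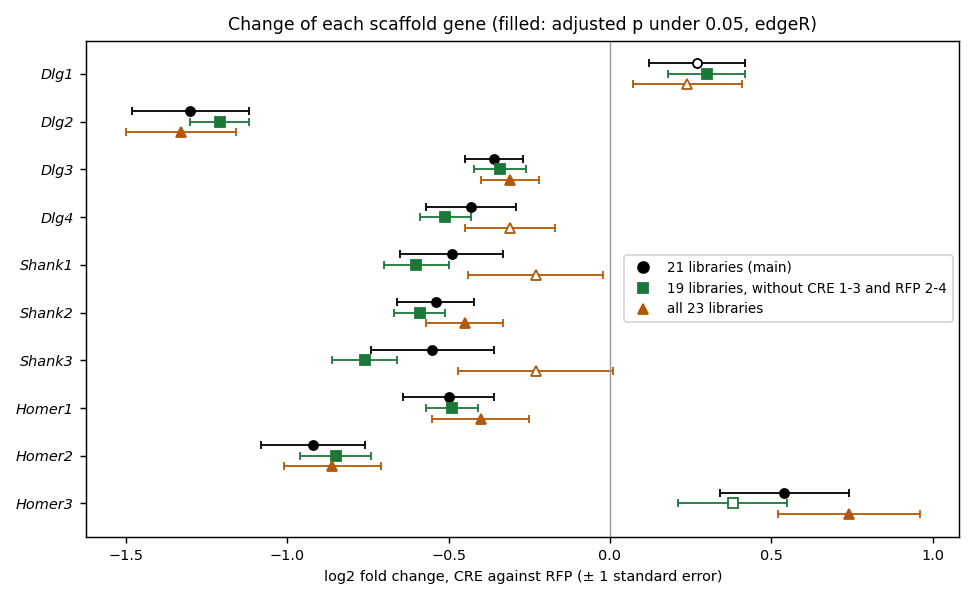
Log2 fold change (CRE against RFP, x axis) with 1 standard error for each scaffold gene, for 21, 19 and all 23 libraries; filled symbols passed an adjusted p of 0.05 in edgeR. Dlg2 (-1.30) and Homer2 (-0.92) lie furthest left under each choice, Dlg4, Shank1 and Shank3 are open with all 23 libraries, and Homer3 is open with 19.

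Homer proteins cross-link Shank to metabotropic glutamate receptors, and here the 3 genes did not move together. *Homer2* (ENSMUSG00000025813, chromosome 7 from 81250229 to 81357275, minus strand) stood at 78.2 to 128 CPM in RFP (median 103) and 20.2 to 69.2 in CRE libraries (median 63.0). No CRE library reached the RFP range, not even CRE 3-3, which at 66.8 CPM is outside the comparison. *Homer2* fell by 0.92 on the log2 scale (SE 0.16, adjusted p = 7.51e-05 in edgeR's test), or -47% (95% interval -57.7% to -33.7%), and passed under all 38 alternatives.

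*Homer1* encodes the long, cross-linking forms and the short form Homer1a, which synaptic activity induces and which lacks the coiled coil (ENSMUSG00000007617, chromosome 13 from 93436143 to 93541637). Counts per gene join these forms. It ranged from 61.8 to 129.5 CPM in RFP libraries (median 108) and from 35.4 to 89.9 in CRE libraries (median 77.6). Only CRE 1-3 lay below all RFP libraries, the lowest of which was RFP 2-4; in the 19 libraries 6 of 10 CRE libraries did. *Homer1* fell by 0.50 (SE 0.14, adjusted p = 0.00773 with edgeR's test), and by 0.49 in the 19 libraries (3.60e-05). With offsets for gene GC content it was -0.28 (adjusted p = 0.113, the highest over the alternatives, which start at 3.60e-05), and with such offsets in the 19 libraries -0.43.

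*Homer3*, a long form best known from Purkinje cells (ENSMUSG00000003573, chromosome 8 from 70735477 to 70747025), stood at 8.88 to 27.4 CPM in RFP (median 18.6) and 13.4 to 55.3 in CRE libraries (median 25.2). The groups overlapped, with 3 of 11 CRE libraries above every RFP library. *Homer3* rose by 0.54 on the log2 scale (SE 0.20, adjusted p = 0.0459 in edgeR's test, 95% interval 0.12 to 0.95). This call rested on single libraries: it held without CRE 2-3, RFP 1-1, RFP 2-2 or RFP 3-3, and was lost without any other library (adjusted p 0.0502 to 0.0948). Over the 19 libraries it was 0.38 (adjusted p = 0.0861), and over all alternatives the range was 0.0141 to 0.175. Exons of *Homer3* overlap *Ddx49* on the opposite strand over 1153 bases, 21.4% of its 50-base stretches occur there too, and no source used here gives the strand setting of the counting, so its counts are uncertain.

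Per length of exon (CPM per kilobase), the order of the 10 genes can be compared within a group. In RFP libraries *Dlg4* stood highest at 43.7 ± 6.32 (SD, n = 10) CPM per kb, followed by *Shank1* (36.3 ± 6.19), *Dlg3* (29.4 ± 1.59), *Dlg2* (29.3 ± 1.89) and *Shank3* (26.5 ± 4.12). These ranges overlapped from each gene to the next, though *Dlg4* was above *Shank1* in all 10 libraries. *Shank2* (12.9 ± 1.33), *Homer1* (8.56 ± 1.67), *Homer2* (7.40 ± 1.22), *Homer3* (3.66 ± 1.06) and *Dlg1* (2.67 ± 0.435) followed, and *Shank3* and *Shank2*, *Shank2* and *Homer1*, and *Homer2* and *Homer3* did not overlap. In CRE libraries *Dlg4*, *Shank1* and *Dlg3* again led, *Dlg2* stood below *Shank3* in 10 of 11 libraries (12.1 ± 3.75 against 18.4 ± 9.85, SD, n = 11), and *Homer2* below *Homer3* in 9 (3.97 ± 1.09 against 5.38 ± 2.09). With the length of the canonical transcript in place of all exons, *Dlg4* was still highest and *Dlg1* lowest by mean in both groups. *Dlg2* and then *Homer2* came next after *Dlg4* in both. In CRE libraries the mean of *Dlg2* was then above that of *Shank3*, and the mean of *Homer2* above that of *Homer3*. The order of these pairs in CRE libraries therefore depended on the length used.

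The share of a gene in its family, from CPM per kb within each library, does not depend on scaling between libraries. *Dlg2* took 28.0% ± 2.71 (SD, n = 10) of the Dlg family in RFP and 17.2% ± 4.90 (n = 11) in CRE libraries, a difference of -10.9 percentage points. Ranges were 22.6% to 31.9% and 3.29% to 20.9% and did not overlap (adjusted p = 0.0001 over 10 genes, two-sided permutation test whose smallest unadjusted p is 2e-05). *Dlg1* rose from 2.55% ± 0.435 to 4.72% ± 1.57 (adjusted p = 0.0006) and *Dlg3* from 28.0% ± 1.36 to 32.6% ± 3.17 (adjusted p = 0.00104, same permutation test). The shares of a family add up to the whole, so a lower share of *Dlg2* raises those of the others. The level of *Dlg3* itself fell (-0.36 on the log2 scale), and that of *Dlg1* did not pass (adjusted p = 0.186 in edgeR's test). For *Dlg4* the shares were 41.4% ± 3.48 and 45.5% ± 8.42, and the difference did not pass (permutation test, adjusted p = 0.209). With canonical transcript lengths the difference of *Dlg4* was 6.25 points (permutation test, adjusted p = 0.0212), the lowest of its alternatives, which reached 0.286.

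Within the Shank family no difference of a share passed the threshold. *Shank1* held 47.9% ± 3.60 (SD, n = 10) in RFP and 49.2% ± 2.84 (n = 11) in CRE libraries, *Shank2* 17.1% ± 1.21 and 17.4% ± 2.58, and *Shank3* 35.0% ± 3.17 and 33.4% ± 3.04 (adjusted p 0.324 to 0.732, permutation test). In the Homer family, *Homer2* went from 38.0% ± 4.10 to 25.5% ± 6.42 (adjusted p = 0.0001) and *Homer3* from 18.5% ± 3.67 to 34.7% ± 13.3 (adjusted p = 0.000333, permutation test). *Homer1* held 43.6% ± 4.93 and 39.7% ± 8.17, which did not pass. The share of *Homer3* also rises because the levels of *Homer2* and *Homer1* fell. The level of *Homer3* itself was close to the threshold (adjusted p = 0.0459 in edgeR's test) and did not pass in the 19 libraries (0.0861). Its counts are uncertain because of the overlap with *Ddx49*. With canonical transcript lengths *Homer2* went from 67.4% to 53.6% and *Homer3* from 8.71% to 20.6% (adjusted p = 0.0001 and 0.000333, permutation test). *Homer2* then had the largest mean share in both groups. In the 19 libraries the shares were 37.5% and 27.1% for *Homer2* and 17.8% and 31.0% for *Homer3* (adjusted p 0.000144 and 0.000217, exact permutation test). With means per culture, 3 against 3, no p below 0.1 can be reached, and the differences were -10.8 points for *Dlg2*, -12.7 for *Homer2* and 16.6 for *Homer3*.

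**Figure D3:**
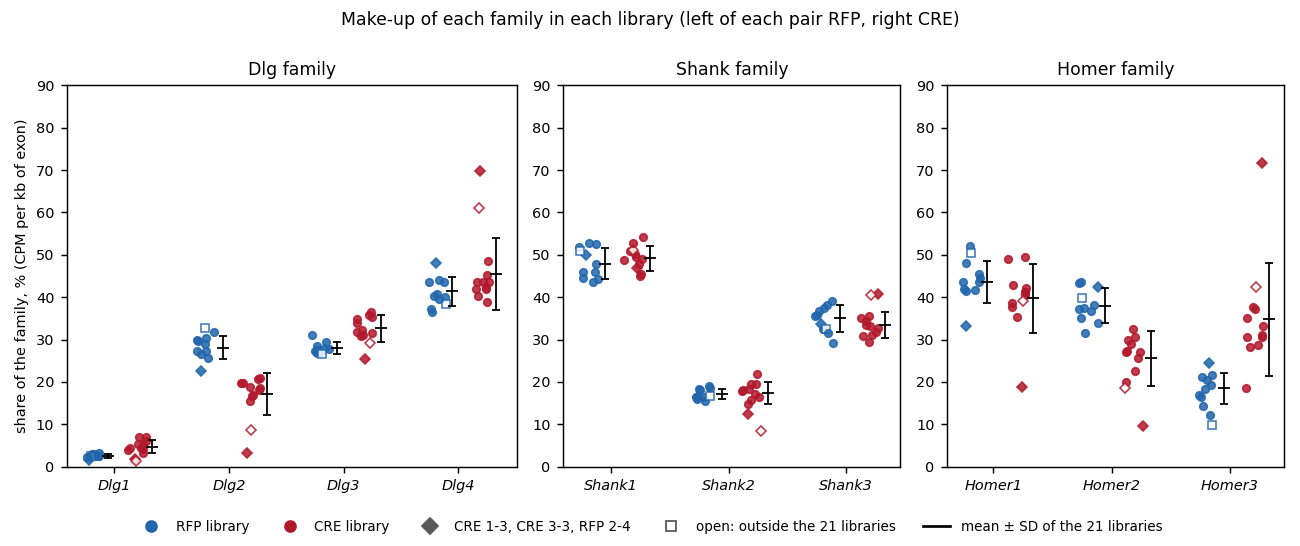
Share (%) of each gene in its family by library, from CPM per kb of exon, RFP left and CRE right in each pair, with mean ± SD of the 21 libraries. Dlg2 and Homer2 shares lie lower in CRE libraries and those of Dlg1, Dlg3 and Homer3 higher, while Shank shares overlap throughout; CRE 1-3, a red diamond, is extreme for Dlg2 (3.29%) and Homer3 (71.7%).

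Part of the neuron markers moved with the scaffolds. Of 10 neuron markers 5 fell (*Rbfox3*, *Syt1*, *Stmn2*, *Tubb3* and *Map2*, log2 fold changes -1.03 to -0.67 in edgeR's test), 1 rose (*Nefm*) and 4 did not pass (6 and 0 in the 19 libraries, where *Nefm* stood at 0.56 with an adjusted p of 0.0522). None was at 0, and their summed level was 3100.5 to 6303 CPM in CRE and 6232 to 7465 in RFP libraries. *Map2*, *Syt1*, *Stmn2* and *Tubb3*, which fell, weigh most in it beside *Snap25* (RFP means 1829, 1144, 1070.2, 859 and 900.2 CPM). *Snap25*, *Elavl3*, *Nefl* and *Elavl4* did not pass (-0.32, -0.07, -0.21 and 0.01 on the log2 scale). A gene that fell less than the sum, as *Dlg3* did, stood higher relative to it. Levels relative to the sum are no measure per neuron. Relative to that sum, measured within each library on the log2 scale, *Dlg2* was lower by 0.83 and *Homer2* by 0.39 in CRE (adjusted p = 0.0002 and 0.026, permutation test). *Dlg1* was higher by 0.81, *Dlg3* by 0.21 and *Homer3* by 1.10 (adjusted p = 0.0003, 0.0381 and 0.00107, permutation test). *Homer2* did not pass with all 23 libraries (-0.33, adjusted p = 0.0707) and was near the threshold in the 19 (adjusted p = 0.0492, exact permutation test). *Dlg3* did not pass in the 21 libraries left by the study's methods (0.14, adjusted p = 0.0596, permutation test). For *Dlg4*, *Shank1*, *Shank2*, *Shank3* and *Homer1* the differences were 0.12, 0.04, 0.02, -0.06 and 0.07, and none passed (adjusted p 0.942 to 0.98). In the 19 libraries the difference of *Shank3* was -0.22 (adjusted p = 0.053, exact permutation test), and with CRE 1-3 and CRE 3-3 left out it was -0.28 (adjusted p = 0.024).

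Other cell types also differed between the groups. Of 9 oligodendrocyte lineage markers tested 6 fell and 0 rose in edgeR, also 0 at an unadjusted p under 0.05 (median -0.99, summed level 447 to 1981 CPM in CRE and 678 to 1975 in RFP), with *Sox10* at -3.13 and *Pdgfra* at -2.60. Of 10 astrocyte markers 4 fell and 2 rose (1673 to 5368 against 3739 to 8024 CPM), and of 10 markers of GABA neurons 2 fell and 3 rose (869 to 1830.4 against 1107 to 2335 CPM). Microglial markers summed to 0.256 to 8.06 CPM in CRE and 1.09 to 6.64 in RFP libraries, with *Cx3cr1* at 0 in CRE, and only 2 of 10 passed the filter on low counts. Of 7 endothelial and mesenchymal markers tested 1 fell and 1 rose (16.5 to 387 against 17.6 to 145 CPM, *Cldn5* at 0 in RFP). The part of these shifts in the change of the scaffold genes was not tested.

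Direct partners of the scaffolds, a list of 27 genes of Dlgap proteins, RasGAPs, exchange factors and actin linkers, were lower more often than higher. Of these 11 fell, 2 rose (*Cttn* and *Tanc1*) and 14 did not pass, with a median of -0.28 (17 and 3 in the 19 libraries, median -0.44). The background for this and the other lists was 13.8% lower and 16.4% higher over all genes, or 18.7% and 19.4% in the 19 libraries. *Cnksr2*, a scaffold between PSD-95 and Ras signalling, fell from 118 ± 14.6 (SD, n = 10) to 44.0 ± 13.5 (n = 11) CPM, -1.45 on the log2 scale (adjusted p = 2.36e-07 in edgeR's test). *Kalrn*, the exchange factor kalirin that shapes spines, fell by 0.81 and *Frmpd4*, which links PSD-95 to Homer, by 0.88, both with no overlap of the groups. *Nos1*, neuronal nitric oxide synthase, which PSD-95 tethers near NMDA receptors, fell by 1.42 (adjusted p = 5.66e-06). Among the Dlgap genes, which join Dlg to Shank, *Dlgap1* fell by 0.71 (adjusted p = 4.10e-05), while *Dlgap2*, *Dlgap3* and *Dlgap4* stood at -0.38, 0.01 and 0.03 and did not pass. In the 19 libraries *Dlgap2* did (-0.51, adjusted p = 0.00502 in edgeR's test). *Cttn*, *Tanc1* and the Dlgap genes were named after their values were seen.

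Receptors, channels and adhesion proteins that these scaffolds bind showed a like balance. Of 24 genes 13 fell, 3 rose and 8 did not pass (median -0.49, 16 and 3 in the 19 libraries). *Grm5*, the metabotropic receptor that Homer binds, fell from 390.1 ± 59.2 (SD, n = 10) to 179 ± 59.5 (n = 11) CPM, or by 1.14 on the log2 scale (SE 0.18, adjusted p = 3.12e-05 with edgeR's test). *Grin2b*, the NMDA receptor subunit of young synapses, fell by 0.98, *Gria1*, an AMPA receptor subunit, by 0.91 and *Nlgn3*, a neuroligin, by 0.97 (adjusted p 2.44e-05, 7.67e-05 and 2.52e-05). For these 3 genes the CRE and RFP ranges did not overlap, and for *Grm5* 10 of 11 CRE libraries lay under the RFP range. The 3 that rose, named after their values were seen, were *Cacng2* (stargazin, 0.69), *Cacng3* (0.83), both auxiliary subunits of AMPA receptors that bind PSD-95, and *Gria4* (0.56).

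**Figure D4:**
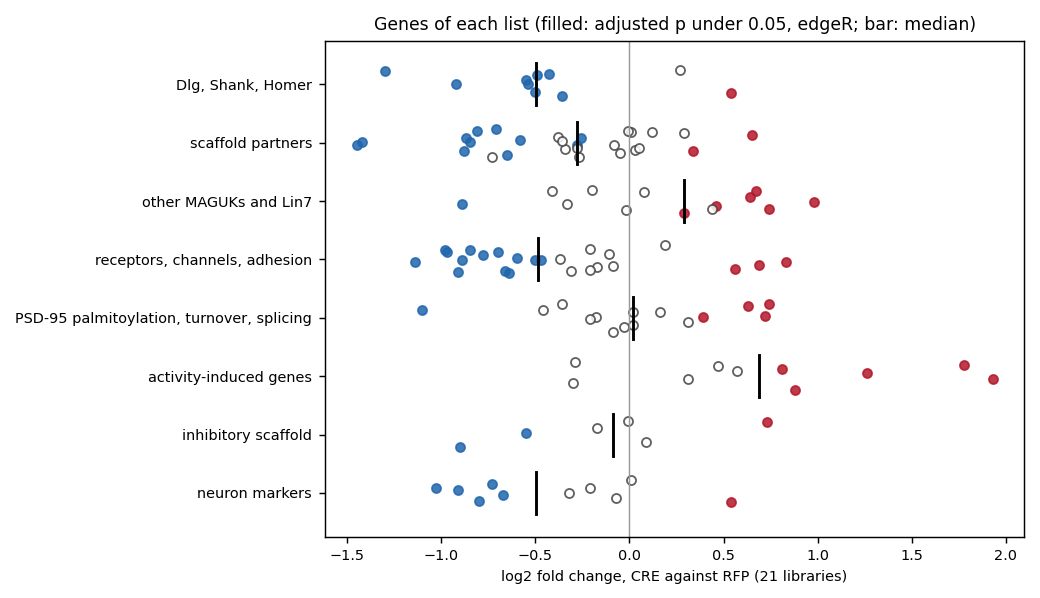
Log2 fold change (CRE against RFP, 21 libraries, x axis) of each tested gene by list, filled where the adjusted p was under 0.05 in edgeR (blue lower, red higher), with the median of each list as a bar. Scaffolds and bound receptors have medians of -0.49, neuron markers -0.50, other MAGUKs 0.29 and activity-induced genes 0.69.

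MAGUKs outside the PSD-95 family went the other way more often. Of 13 such genes (with the Lin7 adaptors) 6 rose, 1 fell (*Lin7b*) and 6 did not pass, with a median of 0.29. *Tjp1*, the tight junction protein ZO-1, rose by 0.67 on the log2 scale, *Magi3* by 0.64 and *Mpp7*, a polarity MAGUK, by 0.98 (adjusted p 0.00821, 0.000646 and 0.00427 in edgeR's test). *Dlg5*, which shares a name but not the family, stood at 73.9 CPM in RFP and 91.6 in CRE libraries (0.29, adjusted p = 0.0471), and *Cask*, which pairs with Lin7 and Mint, at 136 and 145 CPM, did not pass. *Lin7b*, *Dlg5* and *Cask* were named after their values were seen.

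Of 15 genes for the palmitoylation, turnover and splicing of PSD-95, 1 fell, 4 rose and 10 did not pass (median 0.02; 3 and 5 in the 19 libraries), a share of calls near the 30.2% of all genes. *Ptbp1*, which represses the *Dlg4* exon that stable PSD-95 transcripts need, rose by 0.74 on the log2 scale (40.0 ± 7.74 CPM in RFP, SD, n = 10, to 67.6 ± 17.0 in CRE, n = 11, adjusted p = 0.00019 in edgeR's test). *Mdm2*, a ubiquitin ligase of PSD-95 and of p53, rose by 0.72 and *Zdhhc5*, a palmitoyltransferase, by 0.39 (adjusted p = 0.000213 and 0.00129). *Ptbp2*, of the same list, went the other way: -0.46 on the log2 scale, which did not pass (adjusted p = 0.162 in edgeR's test). In the 19 libraries *Ptbp2* was called lower (-0.42, adjusted p = 0.000426); it was named after its values were seen. Exon use of *Dlg4* was not measured by counts per gene.

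Activity-induced genes were read beside *Homer1*, whose short form belongs to them. Of 10 genes 5 rose, 0 fell (0 also at an unadjusted p under 0.05 in edgeR) and 5 did not pass (median 0.69; 4 and 0 in the 19 libraries). *Nptx2*, a secreted pentraxin that gathers AMPA receptors, rose from 12.5 ± 6.29 (SD, n = 10) to 48.1 ± 24.3 (n = 11) CPM, 1.93 on the log2 scale (adjusted p = 1.30e-05 in edgeR's test), with 10 of 11 CRE libraries above all RFP libraries. *Fosb* rose by 1.78, *Fos* by 1.26 and *Dusp1* by 0.81 (adjusted p 0.00184, 0.00588 and 0.0144). With all 23 libraries *Fos* (0.82, adjusted p = 0.11) and *Dusp1* (0.63) did not pass. *Arc*, whose product is recruited to the postsynaptic density, stood at 25.1 CPM in RFP and 46.9 in CRE libraries (0.88, adjusted p = 0.0423), and 0.57 (0.125) in the 19 libraries; it was named after its values were seen.

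At the inhibitory synapse, where gephyrin is the scaffold, 2 of 6 genes fell and 1 rose (3 and 1 in the 19 libraries). *Gphn*, gephyrin itself, fell from 58.3 ± 8.21 (SD, n = 10) to 40.4 ± 8.64 (n = 11) CPM, -0.55 on the log2 scale (adjusted p = 0.00173 in edgeR's test). With offsets for GC content, *Gphn* was at -0.29 (adjusted p = 0.236). *Dag1*, dystroglycan, rose by 0.73 (adjusted p = 8.54e-05).

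Genes whose pattern over the 21 libraries was most like that of a scaffold were sought by the root mean square difference of centred log2 CPM. For *Dlg4* these were *Cbx6*, *Agap3* and *Adgrl1* (0.10, 0.11 and 0.11, against a median of 0.64 over 14487 genes), for *Shank3* *Agap2*, *Psd* and *Agap3* (0.14, 0.14 and 0.15, median 0.74), and for *Homer1* *Nckap1*, *Ppp3r1* and *Samd8* (0.13, 0.17 and 0.17, median 0.65). Among the other scaffolds, *Shank2* ranked 17th and *Shank1* 52nd of all genes for *Dlg4*, whereas *Dlg2* ranked 10598th. These differences include the departures of CRE 1-3 and RFP 2-4. In CRE 1-3 *Dlg4*, *Shank1* and *Shank2* departed upwards (1.05, 1.21 and 0.71 on the log2 scale) and *Dlg2* downwards (-2.19). The ranks of the scaffolds are not given for the 19 libraries, so how much of the contrast rests on that library was not tested. In the 19 libraries *Agap3* led for *Dlg4* (0.09), *Cbx6* for *Shank3* (0.12) and *Cetn2* for *Homer1* (0.12).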

How the data were processed

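Per the labels, RNA of hippocampal cultures infected with RFP or CRE virus was sequenced in 23 libraries. The authors used a stranded mRNA kit, aligned reads to GRCm39 and deposited whole-number counts of reads per gene without normalization. The submitters' processing notes name bcl2fastq 2.20.0.422, STAR 2.7.8a and featureCounts 1.5.0-p1. The strand setting and the handling of reads with several locations are not given in the sources used here, so genes with shared sequence are uncertain.

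The tables list 56941 Ensembl identifiers, of which GENCODE M39 named 56323, with 99.95% of counts. Groups came from the labels. The main comparison used the 21 libraries of the study's own count table. Its methods name another set, without CRE 1-3 and CRE 3-3, which was an alternative. R 4.3.3 with edgeR 4.0.16 was used with filterByExpr, TMM factors, a robust quasi-likelihood fit and Benjamini-Hochberg adjustment over 14488 genes, with a call at an adjusted p under 0.05. CPM used TMM factors over all 23 libraries. Shares and levels relative to neuron markers were tested by permuting the groups (two-sided, 100000 resamples, or exact where fewer regroupings exist, as with the 19 libraries), with p adjusted over the 10 genes. The scripts were tested on simulated data. Python 3.11.15 was used with pandas 2.3.3, matplotlib 3.10.9, scipy 1.17.1 and numpy 2.4.6.

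The members, the gene lists and the alternatives were chosen with earlier results of these data known. Genes named are the 10 members, *Nedd8*, from each other list up to 4 genes with the smallest p among those called and alike in direction in all 3 cultures, and the 3 nearest patterns of *Dlg4*, *Shank3* and *Homer1*. Markers are named where their list moves with a result. *Lrrc7* was left out, as 2 identifiers carry its name. Some genes that the counts of the lists include, and a sequence, are not reported here. No pair of libraries agreed within sampling noise (lowest chi-square per degree of freedom 10.4). Alternatives covered the choice of libraries, DESeq2 1.42.0, limma-voom (limma 3.58.1), scaling, the filter, GC offsets, blocks, sums per culture, and cultures and libraries left out. The 19 libraries with GC offsets and the canonical transcript length were added after seeing the data.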

Additional observations from a re-analysis of the deposited data

Results flagged for a closer look

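The following values lay outside the main comparison and above every RFP library in it, all in CRE 3-3, which has 1546796 counts and 1.83% mitochondrial counts. *Shank1* stood at 894 CPM there, against 282 to 506 CPM in the RFP libraries of the main comparison. *Shank3* was at 617 CPM, against 178 to 297, and *Homer3* at 55.9 CPM, against 8.88 to 27.4. In the same library *Dlg1* was at 17.1 CPM, below every RFP library. The rest of the CRE libraries, apart from CRE 1-3, had *Shank1* at 174 to 303 CPM and *Shank3* at 102 to 164. *Nedd8* was at 2.05 CPM in CRE 3-3.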

How the results depend on the processing

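All 10 scaffold genes kept their direction under the 38 alternatives, and *Dlg2* and *Homer2* also their call. The main comparison called 8 lower and 1 higher. Lower calls were 5 with all 23 libraries, 2 without culture 2 and 4 without culture 3, and 6 to 8 when single libraries were left out. Of all 14767 genes tested without culture 3, 1628 were called lower and 1737 higher. Higher calls were 2 with the 21 libraries left by the study's methods, with GC offsets, and with the replicate block by culture number plus GC offsets. They were 0 with limma-voom, with the replicate block by culture number, and without culture 1, 2 or 3, and 0 to 1 when single libraries were left out. *Homer3* is the gene lost in each of these, and its unadjusted p in the main comparison is 0.0135. The replicate block by culture number left 8 lower calls and gave *Homer3* 0.50 (adjusted p = 0.0695 in edgeR). Samples with the same culture number correlated at 0.00487 to 0.152 in their deviations, so the numbers were not taken as pairing. Changes given per culture therefore compare CRE and RFP libraries that may not share a culture. With the block by the number after rep the calls were 8 lower and 1 higher. Scaling to total counts moved the median of all genes from 0.019 to 0.107 and the calls from 1996 lower and 2374 higher to 1533 and 2949. Without a filter on low counts 2553 genes were lower and 4367 higher, and without culture 2 there were 803 and 1311. Among the other lists, lower calls without culture 2 were 6 of the partners and 5 of the receptors (7 without culture 3), higher calls were 2 of the other MAGUKs and 2 of the activity-induced genes, and without CRE 1-3 alone 17 of the partners were lower.

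Differences that changed sign were small and did not pass in the permutation tests. The share of *Shank2* was -0.40 points with all 23 libraries, and that of *Homer1* was 1.91 with canonical lengths. Relative to neuron markers, the 21 libraries left by the study's methods gave -0.04 for *Dlg4*, -0.16 for *Shank1* and -0.13 for *Shank2*, the 19 libraries gave -0.07 for both *Shank1* and *Shank2*, and all 23 gave 0.13 for *Shank3*. The cause was not tested. At least 88 counts per library lie behind each value of a scaffold gene in the main comparison, and 25 when CRE 3-3 and RFP 3-2 are added.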
